A study of Mus musculus with 45 samples.

Results

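The mitosis and cytokinesis genes followed here are 39 genes whose products build the kinetochore and spindle, condense and separate the chromosomes, and cut the dividing cell. They were listed by symbol and grouped into 7 roles, and all 39 were found among the 18193 genes named on the arrays. Of several probe sets for a gene, the one with the highest mean over all 45 arrays stood for it, and 28 of the 39 genes had more than 1. The members were measured in 15 groups of 3 arrays: cultured R1 embryonic stem cells (ESC), a pluripotent mouse line, undivided CD1 embryos of embryonic day 7.5 (E7.5), the heart tube of E8.5, and each ventricle, left or right, taken at 4 embryonic stages from E9.5 to E18.5, on day 3 after birth and from adults. All mice were wild-type CD1, with no transgene or treatment in any group. Per the labels' protocols RNA was pooled for each array: 30 to 50 embryos or hearts at the earliest stages (E9.5 and before), 10 to 20 hearts at E12.5 or E14.5, and 3 to 5 at E18.5, whereas each day 3 or adult array held 1 heart. Day 3 and adult hearts alone were frozen and pulverised before extraction. Labelled cRNA was made from 100 ng of total RNA. The submitters describe the replicates as biological, and with 3 arrays a group their number limits the precision.

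Cells entering mitosis attach their chromosomes to spindle microtubules through the kinetochore, and a checkpoint there holds back anaphase until attachment is complete. The Aurora and Polo-like kinases and the chromosomal passenger complex direct attachment and then the central spindle, where a contractile ring and the abscission machinery divide the cytoplasm. In the mouse heart, cardiomyocytes divide before birth, and in the first days of life many pass a last round in which nuclei divide and the cell does not, after which most leave the cell cycle.

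Values are log2 levels on the scale of robust multi-array average (RMA), where 1 unit is a doubling. Because each probe set has its own response, levels are compared between samples and not between genes. A gene was called higher or lower at a limma adjusted p under 0.05 (Benjamini-Hochberg over all 18193 genes). The heart label held against its markers: the mean level of 10 cardiomyocyte markers was 5.63 in ESC and 5.37 at E7.5, and 12.47 at E8.5. It was 13.81 at E18.5, 13.80 at day 3 and 13.97 in the adult. On 5 arrays the markers of another tissue stood over 1.5 units above the rest of the group, and these arrays are named where they touch a result.

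Many genes of mitosis carry in their promoter a cell cycle genes homology region, whose core reads TTTGAA, downstream of the CCAAT box bound by NF-Y. The MuvB complexes bind that region, as a repressor in resting cells and, joined by Mybl2, as an activator in dividing cells. RefSeq promoters of GRCm38.p6, 250 bases before to 50 after each start, were held for 35 of the 39 members (38 promoters). TTTGAA on either strand (TTTGAA or TTCAAA) was in 29 of the 38, which is 76.3%, against 17.9% of all 32851 promoters and 13.4% of those of genes on the arrays. CCAAT on either strand (CCAAT or ATTGG) was in 27 of the 38, or 71.1%, against 37.4% of all promoters. Both were in 24, or 63.2%, against 6.95%. A CCAAT starting 20 to 45 bases before a TTTGAA was in 15 of the 38, or 39.5%, against 1.02% of all promoters, a spacing that was chosen after the positions were seen. The 120 bases before the start are printed for 8 members, read 5′ to 3′ on the gene's own strand, with TTTGAA and CCAAT of either strand in capitals. The first 6 show a CCAAT before a TTTGAA, Ect2 shows the reverse order within this window, and Mybl2 holds neither. These 8 are examples and not a typical sample. Over all member promoters the 35 TTTGAA matches had a median position of 3, which lies past the start site and outside the printed windows.
Depdc1a: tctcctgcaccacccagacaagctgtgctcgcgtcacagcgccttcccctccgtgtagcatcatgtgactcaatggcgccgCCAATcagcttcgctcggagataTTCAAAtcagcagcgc
Ube2c: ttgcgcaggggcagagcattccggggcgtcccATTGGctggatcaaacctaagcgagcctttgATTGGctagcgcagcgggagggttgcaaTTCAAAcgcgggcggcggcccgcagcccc
Cdc20: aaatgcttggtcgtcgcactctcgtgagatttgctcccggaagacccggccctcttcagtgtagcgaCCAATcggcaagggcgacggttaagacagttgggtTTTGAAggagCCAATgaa
Top2a: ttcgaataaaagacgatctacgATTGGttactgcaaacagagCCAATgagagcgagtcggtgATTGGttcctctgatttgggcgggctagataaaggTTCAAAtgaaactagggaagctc
Kif11: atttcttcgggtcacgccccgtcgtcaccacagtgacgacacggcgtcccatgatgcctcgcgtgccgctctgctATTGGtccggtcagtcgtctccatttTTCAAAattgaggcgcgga
Prc1: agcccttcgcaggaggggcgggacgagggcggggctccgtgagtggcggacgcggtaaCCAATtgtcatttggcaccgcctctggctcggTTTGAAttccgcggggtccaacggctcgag
Ect2: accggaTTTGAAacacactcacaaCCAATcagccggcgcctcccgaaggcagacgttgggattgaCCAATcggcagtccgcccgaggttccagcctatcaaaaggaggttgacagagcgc
Mybl2: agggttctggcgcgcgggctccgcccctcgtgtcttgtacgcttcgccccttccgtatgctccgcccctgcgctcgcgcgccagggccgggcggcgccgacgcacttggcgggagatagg
Depdc1a, at chr3:159495313-159495432 (plus strand), holds TTTGAA from base -16, the start site being 0, and CCAAT from -39. Ube2c, at chr2:164769809-164769928 (plus strand), holds TTTGAA from -29 and CCAAT from -88 and -57. Cdc20, at chr4:118437344-118437463 (minus strand), holds TTTGAA from -18 with CCAAT before it, from -53, and after it, from -8. These 3 genes are grouped here under mitotic exit and regulation. The Top2a window, at chr11:99024190-99024309 (minus strand), has TTTGAA from -23 below 3 CCAAT boxes from -98, -78 and -58. The Kif11 window, at chr19:37376262-37376381 (plus strand), has TTTGAA from -19 and CCAAT from -45. The Prc1 window, at chr7:80294356-80294475 (plus strand), has them from -30 and -62. In Ect2, at chr3:27153879-27153998 (minus strand), TTTGAA starts at -114 and lies before its CCAAT boxes from -96 and -55, but the 300-base promoter holds a further TTTGAA after the start site, downstream of those boxes and outside the printed window. The Mybl2 window, at chr2:163054515-163054634 (plus strand), held no match. A match describes letters in a window, and no binding was measured here.

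**Figure D1:**
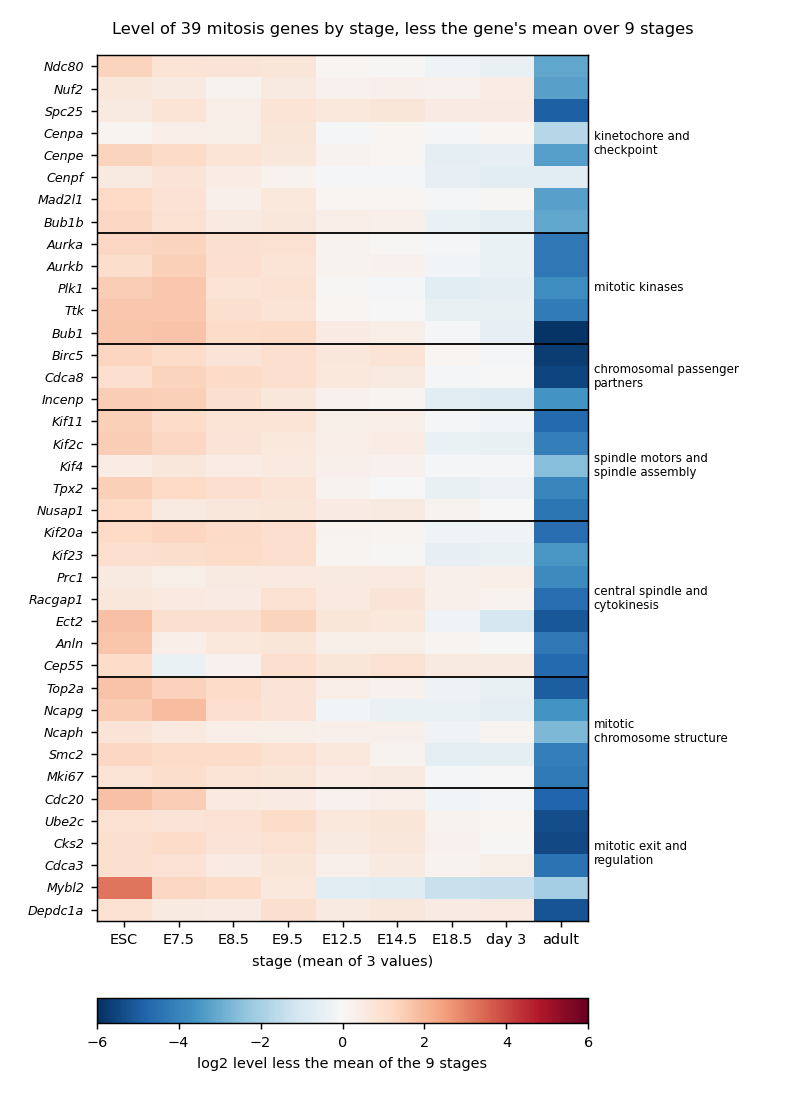
Log2 level of each of the 39 members at the 9 stages, less the gene's own mean over those stages, as colour from -6 to 6, with rows ordered by role. The adult column is the lowest of the 9 for 38 members, the exception being Cenpf.

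Of the 39 members, 38 were lower in the adult heart than at any earlier stage. Their median level, ± SD over 3 replicates of the stage, was 10.48 ± 0.09 in ESC, 9.07 ± 0.06 at E18.5, 9.0 ± 0.10 at day 3 and 5.25 ± 0.13 in the adult. Over the same stages the median of all genes moved between 6.68 and 6.84. The highest of the 9 stages was ESC for 21 members, E7.5 for 12, E8.5 for 1 and E9.5 for 5, and the lowest was the adult for 38. Before the adult a member's 8 stage means spanned a median of 1.59 log2 units, from 0.29 for the flattest to 4.56 for the widest, Mybl2.

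With 1 probe set per gene, few members were called between E18.5 and day 3, the step across birth. Of the 39, 1 was called higher and 3 lower, while 9.94% of all genes were called higher and 10.3% lower. The median difference was -0.04 over the members and 0.01 over all genes, and 6 members passed an unadjusted p of 0.05. By values that did not overlap between the 3 replicates of each stage, 4 members were higher and 7 lower, where 23.3% and 21.7% of all genes were. By the probe set chosen for each gene, the members' share of calls was thus under that of the arrays as a whole. With 1 higher and 3 lower, this rests on few genes, and the difference in share was not tested. Which members were called also depended on the probe set rule, as given below. Of all 87 probe sets of the members, 9 were lower and 3 higher. The share of lower ones among these 87 was near that of all genes. RNA of ventricle tissue was measured in bulk, so fewer cells of a type and less RNA per cell cannot be told apart. Handling changed at the same step: day 3 hearts were frozen, pulverised and measured 1 per array, and E18.5 hearts were pooled 3 to 5 per array. Birth and handling therefore cannot be told apart here, and the part of handling was not tested.

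Ect2, the guanine nucleotide exchange factor that turns on RhoA at the cell equator to form the contractile ring, was the member that moved most across birth. Left ventricles at E18.5 read 8.76, 8.57 and 8.86 and right ventricles 8.92, 8.78 and 8.94. At day 3 left ventricles read 7.98, 8.14 and 7.87 and right ventricles 8.08, 8.27 and 7.76. All 6 arrays at day 3 lay under all 6 at E18.5, in either ventricle. The change was -0.79 (SE 0.098, limma adjusted p = 3.7e-06, n = 3 per stage). Ect2 had already fallen by 0.85 from E14.5 to E18.5, and it was called in each alternative tried except a demand for a 2-fold change. Of its partners in the central spindle, Racgap1, Kif23, Prc1, Kif20a, Anln and Cep55 were not called, and the median of the 7 cytokinesis genes was -0.00. With the mean of its probe sets Anln was called lower (-0.32, limma adjusted p = 0.0253). Kif23, the motor of the centralspindlin complex that recruits Ect2, ran from 8.39 to 8.91 at E18.5 (median 8.62) and from 8.65 to 8.83 at day 3 (median 8.75), which overlap. Its difference was 0.12 (SE 0.077, limma adjusted p = 0.305).

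Among the 5 mitotic kinases 2 fell. Bub1, a kinetochore kinase of the spindle checkpoint, read 9.52, 9.40 and 9.74 in left and 9.75, 9.66 and 9.78 in right ventricles at E18.5. At day 3 it read 9.12, 9.37 and 9.12 in left and 9.31, 9.36 and 9.40 in right. The highest day 3 array, 1 right ventricle, reached the lowest of E18.5, 1 left ventricle, and the others did not overlap. The change was -0.36 (SE 0.10, limma adjusted p = 0.0126). Bub1 was not called without replicate 3 of E18.5 or replicate 1 of day 3, in either ventricle alone (adjusted p = 0.0567 left, 0.0518 right), or with the mean of its probe sets (-0.20). Aurka, the centrosomal Aurora kinase that matures the spindle poles, read 8.86, 8.75 and 8.93 in left and 9.35, 9.24 and 9.27 in right ventricles at E18.5. At day 3 it read 8.75, 8.88 and 8.62 in left and 8.89, 8.83 and 8.68 in right. Right ventricles did not overlap between the stages and left ventricles did. The change was -0.29 (SE 0.085, adjusted p = 0.0166), and left ventricles alone gave -0.10 (adjusted p = 0.652). Aurka was also not called with the mean of its probe sets (-0.091, adjusted p = 0.51), or without replicate 1 (0.0674) or 3 (0.0529) of E18.5 or replicate 3 of day 3 (0.106), adjusted p in parentheses. Plk1, Aurkb and Ttk were not called, though Aurkb was called lower after scaling to housekeeping genes (-0.27) or without replicate 2 of day 3 (-0.29).

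Ncaph, the kleisin subunit of condensin I, was the member called higher at day 3. It read 8.99, 8.87 and 9.49 in left and 9.38, 9.46 and 9.39 in right ventricles at E18.5. At day 3 it read 9.65, 9.77 and 9.77 in left and 9.49, 9.72 and 9.66 in right. The day 3 arrays lay above the E18.5 arrays, with the lowest right ventricle of day 3 barely over left replicate 3 of E18.5, and the change was 0.41 (SE 0.096, limma adjusted p = 0.0033). In right ventricles alone it was 0.22 (adjusted p = 0.181). The other condensin members, Ncapg and Smc2, were not called, though Ncapg was lower with its most variable probe set (-0.27). None of the 8 kinetochore, 3 passenger, 5 spindle or 6 exit members was called by limma in this step or by its trended robust form, and their medians were 0.02, -0.12, -0.04 and 0.02. At an unadjusted p under 0.05, 1 kinetochore gene, Ndc80 (adjusted p = 0.0518), passed. Other alternatives did call some of these members. With the mean of probe sets Nusap1 (-0.37) was lower and Cdca3 was higher (0.24). Ndc80 (-0.18) was also called lower there, but it has 1 probe set, so its values did not change. Only its limma adjusted p moved, from 0.0518 to 0.0389. Cenpf was lower with its most variable probe set (-0.59). In left ventricles alone Ndc80 (-0.315) and Birc5 (-0.39) were lower.

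The count of 4 depended on single replicates. Leaving out 1 replicate of a stage at a time gave 2 to 6 called members, with 2 when replicate 3 of E18.5 was left out. Right ventricles alone gave 2, and 5 were called without the replicates that carried another tissue's markers. Markers of other cells moved across the same step: the mean of 10 fibroblast markers was 11.22 at E18.5 and 11.79 at day 3 (3 of 10 called higher), and that of 10 endothelial markers was 8.92 and 9.37 (4 of 10 called higher). The mean of 10 visceral endoderm markers, high on 1 E18.5 left ventricle array, was 5.99 at E18.5 and 5.15 at day 3. Their part in the result was not tested.

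**Figure D2:**
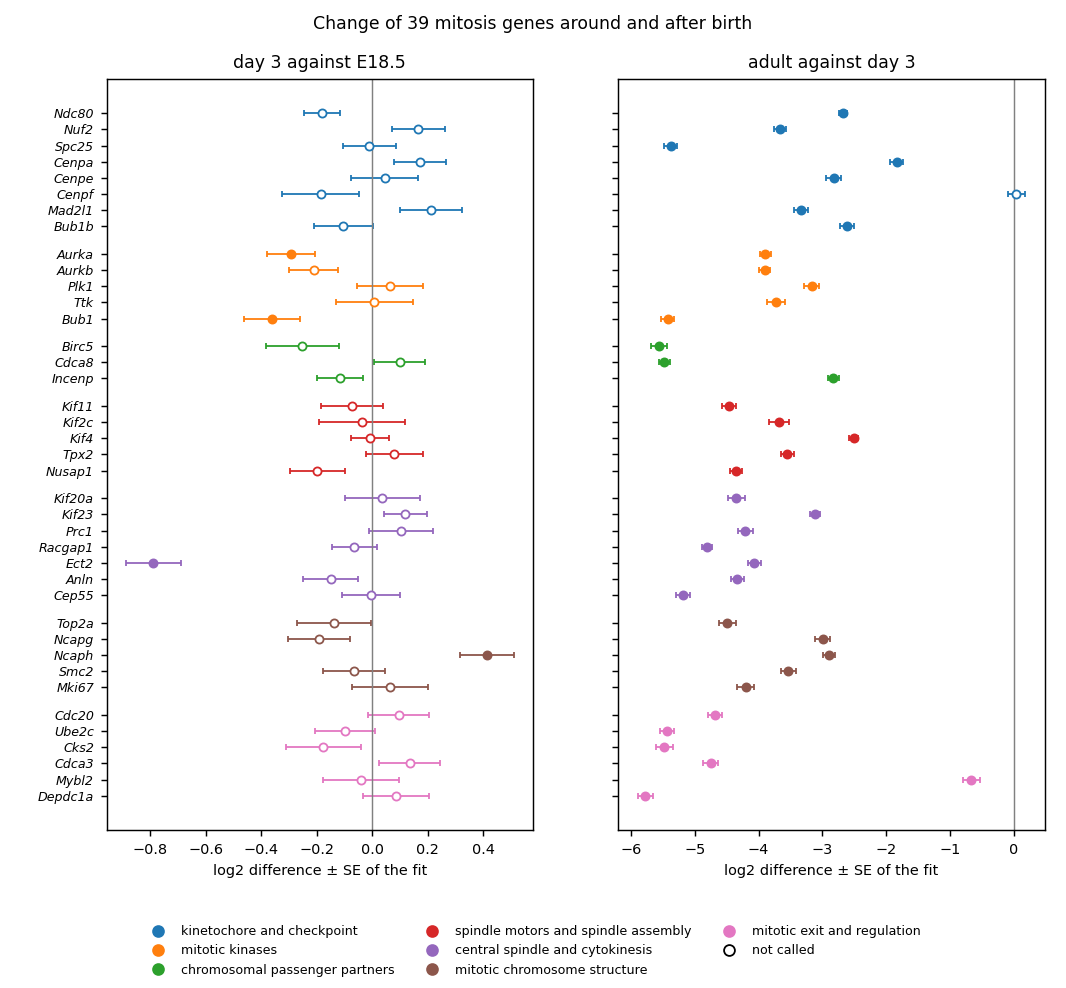
Log2 difference of each of the 39 members from E18.5 to day 3 and from day 3 to adult, with bars of 1 standard error of the limma fit, filled where called and open where not. The day 3 differences lie between -0.79 and 0.41, and the adult ones reach -5.78 (both series use the same day 3 arrays).

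From day 3 to the adult 38 of 39 members fell, where 26.4% of all genes were called lower. By limma 0 rose, 0 did so at an unadjusted p under 0.05 and the trended robust form called the same number of members, where 22.3% of all genes were called higher. At least a 2-fold fall was called for 37 members, against 6.09% of all genes. The median difference was -3.91 over the members and 0.03 over all genes, so that the median member was 15-fold lower in the adult, at 6.67% of its day 3 level. In 38 members the replicates of the 2 stages did not overlap in this direction, where 29.7% of all genes did so. Of the adult levels, 12 members lay under 5.41, the median of all values in the table, on all 6 adult arrays and 9 on none. Near that level RMA compresses differences, so a fold there is understated.

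Kinetochore and checkpoint genes fell in 7 of 8, with a median of -2.75 that counts Cenpf, which did not. Spc25, a subunit of the Ndc80 complex that holds the microtubule, ran from 10.37 to 10.54 at E18.5 (median 10.48), from 10.29 to 10.64 at day 3 (median 10.46) and from 4.53 to 5.72 in the adult (median 5.04). Adult arrays lay far under those of both other stages, which overlapped. Its fall was -5.38 (SE 0.096, limma adjusted p = 2.62e-22), or 41.7-fold. The other subunits of that complex fell by 2.68 (Ndc80) and 3.67 (Nuf2). Mad2l1 and Bub1b, which act in the checkpoint, fell by 3.34 and 2.61, and the motor Cenpe by 2.82. Cenpa, the histone H3 variant that marks the centromere, ran from 11.12 to 11.47 at day 3 and from 9.12 to 9.84 in the adult. No array of either stage entered the other's range, and the fall was 3.58-fold (-1.84, SE 0.094, adjusted p = 7.35e-14).

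Cenpf, a large protein of the outer kinetochore and nuclear envelope, was the member with no call. It ran from 8.61 to 9.08 at day 3 (median 8.90) and read 7.97, 8.36 and 9.88 in left and 10.14, 9.27 and 7.71 in right ventricles of the adult. The adult arrays lay on both sides of day 3 and were more widely spread. The difference was 0.04 (SE 0.14, limma adjusted p = 0.832). The fit averaged left and right by number, which gave 9.055, 8.812 and 8.798 in the adult. The SD was 1.01 among left and 1.23 among right adult ventricles, so this SE understates the spread of the arrays. The other probe sets of Cenpf disagreed: 1 of them fell by 2.72 (adjusted p = 4.46e-13), and the other gave 0.05. With the mean of the probe sets the difference was -0.88.

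All 5 kinases fell, with a median of -3.90. Bub1 ran from 3.44 to 4.16 in the adult (median 4.0), against 9.12 to 9.40 at day 3. The stages stood far apart, and its fall was -5.43 (SE 0.10, limma adjusted p = 5.4e-22), or 43.0-fold. Plk1, the Polo-like kinase of mitotic entry, poles and cytokinesis, fell least. It ran from 8.02 to 8.73 at E18.5 (median 8.49), from 8.37 to 8.6 at day 3 (median 8.51) and from 5.14 to 5.58 in the adult (median 5.36), an 8.97-fold fall (-3.17, SE 0.12, adjusted p = 1.93e-16). Its adult arrays stayed clear of both earlier stages. Aurka ran from 4.45 to 5.15 in the adult, a change of -3.90, with Aurkb at -3.91 and Ttk, the checkpoint kinase Mps1, at -3.72.

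The chromosomal passenger partners of Aurkb fell by a median of 5.48. Birc5, the survivin subunit that brings the complex to chromatin, ran from 10.40 to 10.78 at E18.5 (median 10.52), from 10.16 to 10.41 at day 3 (median 10.33) and from 3.62 to 5.47 in the adult (median 4.82). The adult arrays lay far under the others and were more widely spread. The fall was 47.2-fold (-5.56, SE 0.13, limma adjusted p = 2.71e-20). Incenp, the scaffold of the complex, ran from 9.17 to 9.51 at E18.5 (median 9.45), from 9.14 to 9.48 at day 3 (median 9.31) and from 6.32 to 6.57 in the adult (median 6.49). It fell 7.1-fold (-2.83, SE 0.084, adjusted p = 1.9e-18), with no overlap, and Cdca8, the borealin subunit, by 5.48.

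All 5 spindle genes fell, with a median of -3.68. Kif11, the Eg5 motor that pushes the spindle poles apart, ran from 8.25 to 8.79 at E18.5 (median 8.65), from 8.33 to 8.66 at day 3 (median 8.51) and from 3.51 to 4.41 in the adult (median 4.17). E18.5 and day 3 overlapped and the adult stood apart, with a 22.1-fold fall (-4.47, SE 0.11, limma adjusted p = 7.23e-20). Kif4, the chromokinesin of chromosome arms and midzone, ran from 8.0 to 8.41 at E18.5 (median 8.29), from 8.1 to 8.31 at day 3 (median 8.24) and from 5.31 to 6.06 in the adult (median 5.73). It fell by 2.51 (SE 0.068, adjusted p = 4.27e-19), the least of the 5. Kif2c, a microtubule depolymerase, fell by 3.68, Tpx2, the activator of Aurka on the spindle, by 3.55 and Nusap1, a microtubule bundler, by 4.35.

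All 7 cytokinesis genes fell, with a median of -4.33. Cep55, which recruits the abscission machinery to the midbody, ran from 9.48 to 9.76 at E18.5 (median 9.61), from 9.39 to 9.76 at day 3 (median 9.62) and from 3.97 to 4.95 in the adult (median 4.30). The earlier stages were alike in range and the adult was 36.4-fold lower than day 3 (-5.19, SE 0.11, limma adjusted p = 2.2e-21). Kif23 ran from 5.19 to 5.96 in the adult (median 5.66), an 8.65-fold fall (-3.11, SE 0.077, adjusted p = 6.12e-20) and the smallest of the role. Ect2 ran from 3.48 to 4.27 in the adult (median 4.03), a further change of -4.07 (SE 0.098, adjusted p = 4.41e-20) on top of its fall across birth, with no overlap. Racgap1, the partner of Kif23 in centralspindlin, fell by 4.81, Kif20a by 4.35, Anln, the anillin scaffold of the ring, by 4.33 and Prc1, the bundler of the midzone, by 4.21.

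All 5 genes of mitotic chromosome structure fell, with a median of -3.53. Top2a, the topoisomerase that untangles sister chromatids, ran from 10.09 to 10.85 at E18.5 (median 10.69), from 10.27 to 10.75 at day 3 (median 10.37) and from 5.19 to 6.48 in the adult (median 6.01). The earlier stages overlapped and the adult lay 22.5-fold under day 3 (-4.49, SE 0.13, limma adjusted p = 2.36e-18). Ncaph ran from 6.62 to 6.98 in the adult (median 6.76), under all day 3 arrays, with a 7.43-fold fall (-2.89, SE 0.096, adjusted p = 1.76e-17). Ncapg fell by 3.00, Smc2 by 3.53 and Mki67, the Ki-67 coat protein of mitotic chromosomes, by 4.20.

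All 6 genes of mitotic exit and regulation fell, with a median of -5.09. Depdc1a, a cell-cycle regulator named here for its promoter above, ran from 8.61 to 8.83 at E18.5 (median 8.75), from 8.70 to 9.0 at day 3 (median 8.80) and from 2.59 to 3.53 in the adult (median 3.01). It was 54.8-fold lower in the adult (-5.78, SE 0.12, limma adjusted p = 2.78e-21), and its adult arrays lay near the lowest value in the table, 2.07, so that its fall cannot be ranked against those of other members. Mybl2 ran from 5.95 to 6.29 at E18.5 (median 6.06), from 5.78 to 6.23 at day 3 (median 6.12) and from 4.84 to 5.94 in the adult (median 5.36). Its adult and day 3 arrays overlapped, and the fall was 1.59-fold (-0.67, SE 0.14, adjusted p = 0.000261). Mybl2 was not called after scaling to housekeeping genes (-0.21, adjusted p = 0.199) or in left ventricles alone (-0.44, adjusted p = 0.056). Ube2c and Cdc20, which act with the anaphase-promoting complex, fell by 5.44 and 4.68, Cks2, a subunit of Cdk complexes, by 5.48 and Cdca3 by 4.75.

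**Figure D3:**
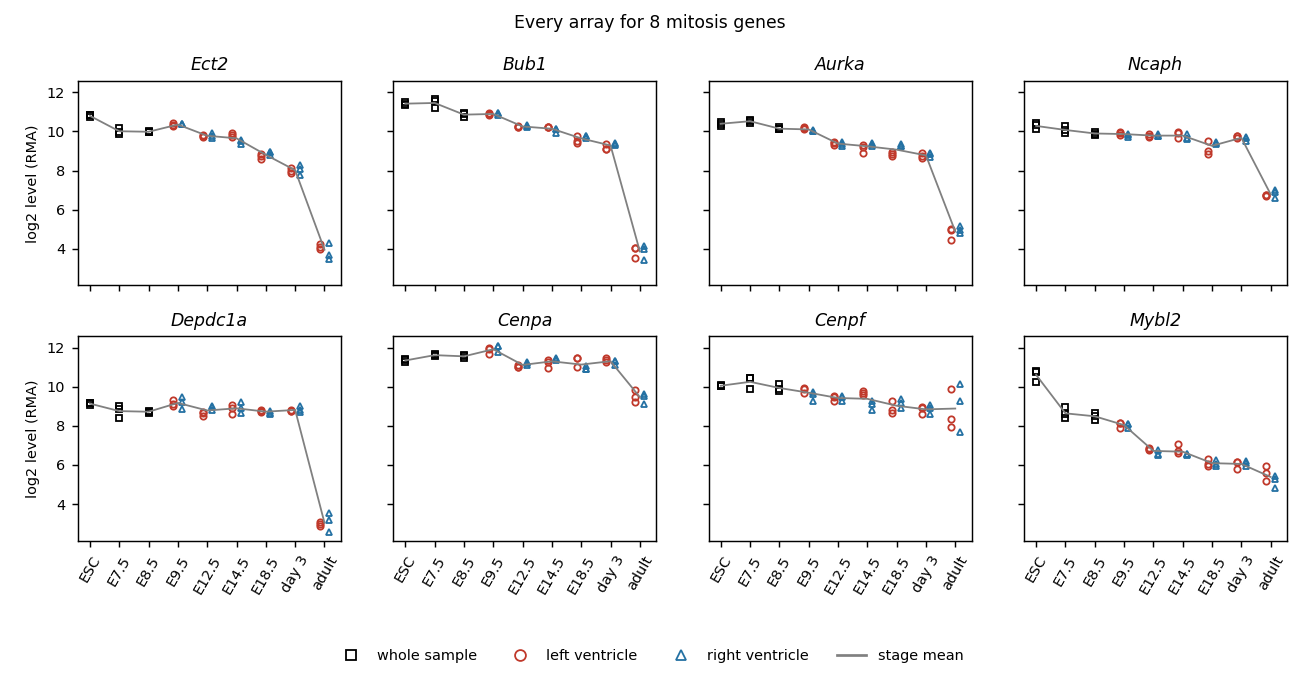
Log2 level on every array, by stage, for Ect2, Bub1, Aurka, Ncaph, Depdc1a, Cenpa, Cenpf and Mybl2, with squares for undivided samples, circles for left and triangles for right ventricles, and a line through the stage means. Ect2 steps down at day 3, Mybl2 has lost most of its level by E12.5, and the 6 adult Cenpf arrays spread from 7.71 to 10.14.

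The adult fall did not rest on a replicate: leaving out any of them gave 38 called members each time. Other markers moved over the same step. The mean of 10 leukocyte markers was 7.43 at day 3 (replicates 7.34 to 7.53) and 9.04 in the adult (8.95 to 9.13), with 9 of 10 called higher, and that of 10 fibroblast markers was 11.79 and 10.94, with 6 of 10 called lower. Of 9 housekeeping genes 8 were called lower, their mean going from 11.26 to 10.80. Scaling to them raised the all-gene median by 0.48, and 37 members were then lower, with a median of -3.45, and 1 was higher, Cenpf at 0.50 (adjusted p = 0.00155). That Cenpf call also used left and right values averaged by number, which hides the spread of its adult arrays, 7.71 to 10.14. The gap between 3′ and 5′ control probe sets of Actb, a sign of RNA quality, had medians of 0.70 and 0.79 in left and right ventricles at day 3 and 0.62 and 0.72 in the adult. For Gapdh the group medians lay between -0.06 and 0.09 throughout. The part of these in the result was not tested.

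Set against E18.5, the adult gave the same count by limma: 38 members lower and 0 higher (also 0 at an unadjusted p under 0.05), where 28.9% of all genes were lower and 28% higher, with a median of -4.12 against 0.05 and a 2-fold fall in 37 members against 8.04% of genes. This comparison shares its adult arrays with the one above. Its 2 stages also differ in freezing, pulverising and pooling of hearts, whose part was not tested. Bub1 and Ect2, which had fallen by day 3, were lower in the adult than at E18.5 by 5.79 and 4.85. Ncaph, which rose at day 3, differed by -2.48 (SE 0.096, limma adjusted p = 2.77e-16).

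The steps before birth were smaller, and members took part in them unequally. From ESC to E7.5, which compares a cell line with whole embryos, 6 members were higher and 11 lower, against 24.3% and 25.2% of all genes, with a median of -0.14 (-0.02 for all genes). Mybl2, the activator that joins MuvB in dividing cells, read 10.81, 10.27 and 10.76 in ESC and 8.40, 8.95 and 8.59 at E7.5, a change of -1.97 (SE 0.14, limma adjusted p = 2.16e-11). Cep55 read 10.09, 10.26 and 10.19 in ESC and 8.82, 8.61 and 8.58 at E7.5, a change of -1.51 (SE 0.11, adjusted p = 2.27e-11). Anln read 11.61, 11.62 and 11.62 in ESC and 10.29, 10.53 and 10.36 at E7.5 (-1.23, SE 0.10, adjusted p = 3.33e-10). In these 3 genes all ESC cultures lay above all embryos. Ect2 (-0.79), Nusap1 (-0.67) and Ndc80 (-0.50) were also lower, and Aurkb (0.37) and Ncapg (0.36) were among those higher. Scaled to housekeeping genes, which moved the median of all genes by 0.13, the split was 9 higher and 6 lower, and without the 1 replicate of E7.5 that carried other tissues' markers (with the other such arrays) it was 8 higher and 7 lower.

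From E7.5 to the heart tube at E8.5, 19 members fell and 1 rose, where 28.1% of all genes fell and 20.4% rose, and the median was -0.31 (-0.06 for all genes). The 5 kinases fell, with a median of -0.60, and so did 5 of 8 kinetochore, 2 of 3 passenger, 3 of 5 spindle, 1 of 5 chromosome structure and 3 of 6 exit genes. The largest falls were those of Cdc20 (-0.87), Ncapg (-0.84) and Plk1 (-0.80). Of the 7 cytokinesis genes 0 fell by limma or at an unadjusted p under 0.05, and Cep55 rose by 0.69, from 8.82, 8.61 and 8.58 to 9.44, 9.33 and 9.31. From E8.5 to the ventricles of E9.5, 8 members rose and 2 fell, against 12.8% and 14.1% of all genes, with a median of 0.04 (-0.02 for all genes). Cep55 rose again, by 0.72 (SE 0.11, limma adjusted p = 1.41e-05), to between 9.99 and 10.18. Depdc1a (0.45), Spc25 (0.42), Racgap1 (0.39), Ect2 (0.37), Cenpa (0.36), Mad2l1 (0.34) and Nuf2 (0.30) rose with it, and Mybl2 (-0.45) and Incenp (-0.26) fell. Without replicate 1 of E8.5 the count was 6 higher and 0 lower by limma. At E7.5 replicate 2 stood apart, with red cell and decidua markers over 1.5 units above its group and 30 of the 39 members at their lowest, and at E8.5 replicate 2 had visceral endoderm markers 2.69 above.

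From E9.5 to E12.5, 31 members fell, where 18% of all genes fell and 20.1% rose. By limma 0 members rose, 0 at an unadjusted p under 0.05, with a median of -0.39 (0.04 for all genes). All 5 kinases (median -0.72) and all 3 passenger partners (-0.38) fell, with 6 of 8 kinetochore, 6 of 7 cytokinesis, 5 of 6 exit, 3 of 5 spindle and 3 of 5 chromosome structure genes. Mybl2 (-1.32), Ncapg (-0.93), Kif23 (-0.86) and Plk1 (-0.84) fell most. Scaled to housekeeping genes, which raised the median of all genes by 0.20, 20 members were called. Over this step the mean of 10 fibroblast markers went from 7.69 to 10.45, with 10 of 10 called higher, and that of 10 leukocyte markers from 5.48 to 7.12, with 9 of 10 called higher. Their part in the result was not tested. Between E12.5 and E14.5, 1 member was called, Smc2, a condensin ATPase (-0.44, limma adjusted p = 0.00925), where 6.09% of all genes were lower and 7.18% higher, and 3 members passed an unadjusted p of 0.05. Smc2 was lost without replicate 2 of E12.5 or replicate 1 of E14.5. From E14.5 to E18.5, 29 fell, where 18.7% of all genes fell and 11.8% rose. By limma 0 members rose, 0 at an unadjusted p under 0.05, with a median of -0.46 (-0.01 for all genes). All 3 passenger partners (median -0.70) and all 5 spindle genes (-0.47) fell, with 4 of 5 kinases, 4 of 5 chromosome structure, 5 of 7 cytokinesis, 5 of 6 exit and 3 of 8 kinetochore genes. Ect2 (-0.85), Kif2c (-0.83) and Incenp (-0.81) fell most. Right ventricles alone gave 13 called members in this step. The mean of 7 red cell markers went from 8.67 to 6.24 over it, with 4 of 7 called lower, and that of 10 cardiomyocyte markers from 13.21 to 13.81, with 6 of 10 called higher. The part of these in the result was not tested.

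Left and right ventricles were then set against each other at each of 6 stages, on all 45 arrays. At E9.5 and E12.5 limma called 0 members, 0 passed an unadjusted p of 0.05, and the trended robust form called 0, where 3.5% and 1.26% of all genes were called in either direction. At day 3 it called 0 members, 1 passed an unadjusted p of 0.05 and the trended form called 0, where 0.0055% of all genes were called.

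At E14.5, 6 members were higher in the left ventricle, where 4.24% of all genes were higher in the left and 4.27% in the right. By limma 0 members were higher in the right, and 0 at an unadjusted p under 0.05. The median was 0.20 over the members and -0.05 over all genes, and 27 of 39 were positive. Mki67 read 10.72, 11.12 and 10.87 in left and 9.68, 9.87 and 9.95 in right ventricles, a difference of 1.07 (SE 0.18, limma adjusted p = 0.000311, n = 3). Top2a read 11.53, 11.47 and 11.45 in left and 10.56, 10.76 and 11.07 in right (0.69, SE 0.19, adjusted p = 0.0172). Plk1 read 9.06, 9.59 and 9.38 in left and 8.40, 8.75 and 8.91 in right (0.65, SE 0.15, adjusted p = 0.00526). In each of the 3 the ventricles did not overlap. Kif11 (0.55), Kif4 (0.41) and Incenp (0.33) were also called. The count rested on single arrays: it was 5 without the arrays that carried another tissue's markers, 1 without right ventricle replicate 1 or without left ventricle replicate 2, and 3 without right ventricle replicate 2. Right ventricle replicate 1 was the lowest of its 3 in 32 members. Left ventricle replicate 2 had visceral endoderm markers 1.55 above its group. The mean of 10 fibroblast markers was 11.23, 11.14 and 11.34 in left and 10.70, 10.75 and 10.67 in right ventricles, with 3 of 10 called higher in the left. The part of these in the result was not tested.

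At E18.5 the median was -0.15, with 30 of 39 members negative, and Aurka was called lower in the left (-0.44, SE 0.11, limma adjusted p = 0.0141), where 2.11% of all genes were and 2.84% were higher. Its left arrays, 8.86, 8.75 and 8.93, lay under its right arrays, 9.35, 9.24 and 9.27. The count was 0 without left replicate 2 or right replicate 1, and 7 without left replicate 3. Left replicate 2 was the lowest of its 3 in 33 members and had visceral endoderm markers 1.83 above its group, and left replicate 3 was the highest in 31. All left arrays lay above all right ones for the mean of 10 epicardial markers, 8.80, 8.87 and 8.14 against 7.37, 7.33 and 7.15 (6 of 10 called higher in the left). The same held for 10 leukocyte markers, 7.95, 7.70 and 7.34 against 6.97, 7.0 and 7.05 (5 of 10). Their part in the result was not tested. Whether the left-right difference itself changed from E14.5 to E18.5 was tested after these values had been seen. Of the 39 members 10 were called, 9 with a more negative and 1 with a more positive difference at E18.5, where 7.38% of all genes were called in either direction and 3.49% as more negative. The median change was -0.35 over the members and 0.04 over all genes. Top2a (-0.96), Plk1 (-0.92), Mki67 (-0.88), Cenpe (-0.81) and Kif11 (-0.80) changed most, and Cenpa changed the other way (0.60). Across members the E14.5 and E18.5 differences had a correlation of -0.31 (39 genes measured on the same 12 arrays, so not independent) against 0.17 across all genes. The count was 0 by limma without right ventricle replicate 1 of E14.5, without left ventricle replicate 2 of E18.5, or without the arrays that stood apart on other tissues' markers. It was 2 without left replicate 1 or right replicate 1 or 2 of E18.5, and 3 to 6 without another E14.5 array, left replicate 1, 2 or 3 or right replicate 2.

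**Figure D4:**
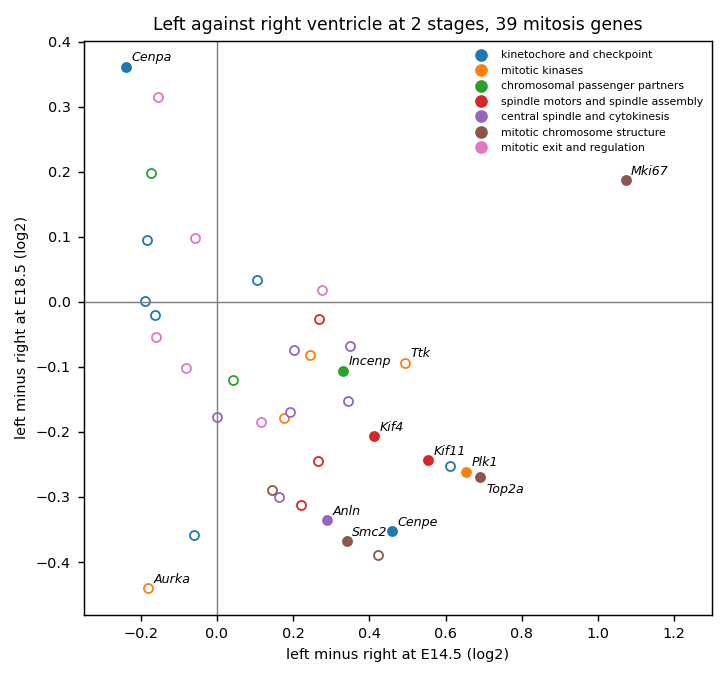
Left minus right log2 difference of the 39 members at E14.5 (horizontal) and E18.5 (vertical), coloured by role, filled where the difference between the 2 stages was called. Of the members 24 lie at the lower right, positive at E14.5 and negative at E18.5, and Mki67 is the farthest to the right at 1.07.

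In the adult the residual levels differed between ventricles for 2 members, both lower in the left, where 0.0165% of all genes, or 3, were called. Cdca3, a cell-cycle gene grouped here with mitotic exit, read 5.51, 5.79 and 5.21 in left and 6.21, 6.93 and 6.35 in right ventricles (-0.99, SE 0.13, limma adjusted p = 9.3e-05). Ndc80, the microtubule-binding subunit of its complex, read 4.98, 4.61 and 4.59 in left and 5.23, 5.45 and 5.64 in right (-0.71, SE 0.10, adjusted p = 0.00027). In both genes all right ventricles lay above all left ones. These levels are dim: Ndc80 lay under 5.41, the median of all values, on 4 of its 6 adult arrays and Cdca3 on 1. No detection calls were used, so whether either gene was expressed there was not tested. Cdca3 was also called for a larger fall in the left ventricle from day 3 to adult (-1.05, SE 0.18, adjusted p = 0.0141), where 0.011% of all genes were called. That call was lost without left replicate 1 or 2 or right replicate 3 of day 3, or without left replicate 3 or right replicate 2 of the adult, and 4 members were called without right replicate 1 of the adult. A fit of the compared groups alone called neither gene in either comparison. Leaving out right ventricle replicate 1 raised the adult left-right count to 8, and leaving out right ventricle replicate 3, which carried atrial markers 1.76 above its group, gave 4. For the step from E18.5 to day 3, limma found 0 members whose change differed between ventricles, 2 at an unadjusted p under 0.05 and 0 by the trended robust form, where 0.308% of all genes were called. Averaged over the 6 stages, Ndc80 was lower in the left (-0.14, limma adjusted p = 0.0499), where 1.72% of all genes were. Leaving out most single arrays gave 0 members for that average, leaving out adult right replicate 1 gave 4, and leaving out adult right replicate 3 or E14.5 left replicate 1 gave 2.

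The members moved together from array to array within a group: the deviation of a gene from its group mean correlated with that of the other members at a median of 0.60, from -0.24 to 0.90, and over 0.5 for 24 of 39. These arrays share their RNA and their scaling, so this is a description. At day 3 left ventricle replicate 2 was the highest of its 3 in 37 members, and among adult right ventricles replicate 1 was the lowest in 30. No share of all genes was set beside these counts.

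All 87 probe sets of the members gave the adult fall less evenly. From day 3 to adult 69 were lower, 1 higher and 17 not called, and among the 48 that had not been chosen 31 were lower, 1 higher and 16 not called. The higher one was a dim probe set of Tpx2 (0.31). From E18.5 to day 3, 9 were lower and 3 higher, the unchosen ones among them being Cenpf (-0.59), Nusap1 (-0.54), Anln (-0.48), Kif11 (-0.44), Kif2c (-0.35) and Ncapg (-0.27) lower and Cdca3 (0.40) and Cenpa (0.34) higher. The probe sets used for Aurkb, Incenp, Kif2c, Ncaph, Cdc20, Cdca8 and Prc1 are of the designs that may also bind other transcripts.

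A further list of mitosis genes, of which 106 of 108 were measured, moved with the members and less far. From day 3 to adult 87 of the 106 fell, 59 of them at least 2-fold, and 5 rose, with a median of -1.48, where 26.4% of all genes were called lower and 22.3% higher. The 5 that rose, named after their values were seen, were Cenpb (0.48), a centromere protein, Lin52 (0.39), E2f4 (0.38), Numa1 (0.34) and Chmp4b (0.32). Of 26 other kinetochore genes 24 fell and 1 rose, Cenpk (-5.03) and Cenpi (-3.92), of the inner kinetochore, the most, while Mad1l1 (-0.40) and Nsl1 (0.18, not called) differed least in size. Of 12 kinases and phosphatases 10 fell, Pbk (-5.23) and Cdk1 (-4.83), the kinase of mitotic entry, the most, while Cit (0.13) and Pkmyt1 (0.10) were not called. Of 20 spindle genes 16 fell and 1 rose, with Hmmr at -5.15 and Aspm, a spindle pole protein, at -4.35, and with Ckap5 (-0.16) and Kif14 (-0.01) not called. Kif14 read 2.61 to 2.94 at day 3, near the lowest value in the table, where a fall could not show. Of 12 chromosome structure and cohesin genes all fell, from Ncaph2 (-0.41) and Smc3 (-0.25) to Cdca5 (-5.05), the sororin that guards cohesion, and Cdca2 (-3.85).

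The remaining lists hold genes with work outside mitosis. Of 16 anaphase-promoting complex genes 12 fell, by a median of 0.40 over the list, Anapc15 (-1.09) and Ube2s (-0.99) the most, while Cdc26 (-0.19) and Anapc1 (-0.14) were not called. Of 9 other cytokinesis genes 6 fell and 1 rose, with a median of -0.56: Shcbp1 (-4.21) and Myh10 (-1.51), a non-muscle myosin, fell most, and Rock1 (0.12) and Rhoa (-0.07), the target of Ect2, were not called. Of 11 mitotic cyclins and regulators 7 fell and 2 rose, Ccna2 and Ccnb2 both at -4.89, with Lin37 (-0.14) and Foxm1 (0.11) not called. From E18.5 to day 3, 6 of the 106 rose and 8 fell, with a median of -0.01, which are smaller shares than the 9.94% and 10.3% of all genes. Those lower were Cdc25b (-0.70), Cenpi (-0.39), Zwint (-0.34) and 5 of the 16 anaphase-promoting complex genes, Anapc5, Anapc11, Cdc23, Cdc27 and Fzr1 (-0.22 to -0.37). Those higher were Septin9 (0.51), Mad1l1 (0.47), Pttg1 (0.39), Ncapd3 (0.30), Hmmr (0.24) and Pbk (0.22).

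The promoters shown above were set beside the adult fall as a description. The 26 members with TTTGAA had a median of -4.13, from -5.78 to 0.04, and the 9 without it a median of -3.67. Ect2, whose promoter holds TTTGAA on both sides of the start, fell by 4.07 and Mybl2, with no match in its promoter, by 0.67. Mybl2 had already gone from a mean of 10.61 in ESC to 6.05 at day 3, so its adult step shows only the end of its fall. The other members with neither TTTGAA nor CCAAT were Ncaph (-2.89), Mad2l1 (-3.34), Nuf2 (-3.67), Nusap1 (-4.35) and Birc5 (-5.56). Cenpf, whose promoter holds both, gave 0.04. Among genes that are no members, a fall of at least 2-fold was seen in 9.94% of the 875 with TTTGAA and CCAAT and in 7.06% of the 2237 with TTTGAA, against 5.75% of the 12180 without it. These genes include the further list of mitosis genes, most of which fell, and 24 of the 99 promoters of that list hold both. The shares therefore do not describe genes outside mitosis, and shares without that list were not tested.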

How the data were processed

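RNA of 45 samples, 3 in each of 15 groups, was measured on Affymetrix arrays. The authors deposited log2 values, 1 per probe set and array, computed with RMA (background correction, quantile normalization and summary of probes) per the submitters' processing notes, with the version not given in the sources used here. Among 45101 probe sets 64 were controls, array medians ran from 5.35 to 5.47, and 0 pairs of arrays held identical values. Quantile normalization removes a change shared by most genes, and no detection calls were used.

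Of the probe sets 34958 had 1 gene symbol in the platform annotation, 932 several and 9211 none or no entry. Of those with 1 symbol, 34741 were named through RefSeq (GRCm38.p6), and the others that were no controls kept the platform symbol. Together they gave 18193 genes. Of these genes 9010 had more than 1 probe set, of which that with the highest 45-array mean was taken.

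Tests were two-sided in limma 3.58.1 (lmFit, eBayes; R 4.3.3), adjusted by Benjamini-Hochberg over all genes, with a threshold of 0.05. For stages, left and right values of the same number were averaged and 27 values fitted as 9 stages (18 residual degrees of freedom). For ventricles, 45 arrays were fitted as 15 groups (30 residual degrees of freedom). Non-overlap was read on the 3 replicate values of a stage. An array was said to stand apart where the mean of a marker list exceeded its group by 1.5. Alternatives were other probe set rules, scaling to housekeeping genes, a filter on dim genes, other thresholds and fits, single ventricles, replicate blocks and leaving out replicates. The fits were tested on simulated data. Tables, motif searches and plots used Python 3.11.15 with pandas 2.3.3, NumPy 2.4.6 and Matplotlib 3.10.9.

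The members and gene lists were chosen with earlier results of these data known. Every array value is given for the members called in day 3 against E18.5 and, by lowest, median and highest of 6 arrays, for the member of each role with the largest and the smallest adult difference; Cenpa, genes of the early stages and genes of the ventricle comparisons were named after their values were seen. Pairing by number was checked, but the main fits did not follow the check: the ventricle fit took no pairing, and the stage fit averaged left and right by number. In the check samples counted as paired where the correlation of deviations exceeded 0.1 in all 3 pairs. Left and right met this at E12.5 (0.271 to 0.369), which the labels do not explain, but not at E9.5 (lowest 0.0713), day 3 (0.0274) or the stages with a negative pair. Across stages no step met it, E18.5 against E14.5 coming nearest (lowest 0.096).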

Additional observations from a re-analysis of the deposited data

Results flagged for a closer look

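The fall of Cdca3 from day 3 to adult differed between the ventricles in limma's test of that difference, by -1.05 (left minus right). For the step from E14.5 to E18.5, chosen for testing after the values were seen, the left-right difference changed for 10 genes. It became more negative for Top2a (-0.96), Plk1 (-0.92), Mki67 (-0.88), Cenpe (-0.81), Kif11 (-0.80), Smc2 (-0.71), Anln (-0.63), Kif4 (-0.62) and Incenp (-0.44), and more positive for Cenpa (0.60). None of these 10 was called by limma without right ventricle replicate 1 of E14.5 or without left ventricle replicate 2 of E18.5.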

How the results depend on the processing

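Of 371 recomputed counts of called members, 265 were within 1.5 times the reported count and 106 were not. The adult counts, 38 against day 3 and 38 against E18.5, were the same whichever replicate was left out. With 1 replicate left out at a time, the counts ranged from 2 to 6 for day 3 against E18.5, 12 to 17 for E7.5 against ESC, 14 to 23 for E8.5, 6 to 10 for E9.5, 24 to 28 for E12.5, 0 to 1 for E14.5 and 25 to 30 for E18.5, each against the stage before. For left against right they ranged from 0 to 0 at E9.5, E12.5 and day 3, 1 to 6 at E14.5, 0 to 7 at E18.5, 2 to 8 in the adult and 0 to 4 for the mean of stages. For the difference in change they ranged from 0 to 4 (adult against day 3), 0 to 1 (day 3 against E18.5) and 0 to 15 (E18.5 against E14.5, added after the data were seen).

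Day 3 against E18.5 gave 2 members at an adjusted p under 0.01 and in right ventricles alone, and 0 at a 2-fold change. E7.5 against ESC gave 9 at 0.01, 9 on 45 arrays and 3 at 2-fold. E8.5 against E7.5 gave 12 on 45 arrays and 0 at 2-fold. E9.5 against E8.5 gave 6 at 0.01 and in left ventricles alone, and 0 at 2-fold. E12.5 against E9.5 gave 20 after housekeeping scaling, 18 in right ventricles alone and 1 at 2-fold. E14.5 against E12.5 gave 2 with those groups alone and with housekeeping scaling, 3 with the mean of probe sets and in right ventricles alone, 4 with the most variable probe set, and 0 in left ventricles alone and at 2-fold. E18.5 against E14.5 gave 13 in right ventricles alone and 0 at 2-fold.

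Left against right at E14.5 gave 10 with the most variable probe set, 2 at 0.01 and 1 at 2-fold. At E18.5 it gave 0 with those groups alone, with the mean of probe sets, at 0.01, at 2-fold and without the arrays that stood apart. In the adult it gave 0 with those groups alone and at 2-fold, 1 with the mean of probe sets and with the heart as a block, and 4 without the arrays that stood apart. The mean of stages gave 0 with the trended form, those groups alone, the most variable probe set, 0.01, 2-fold or the heart block, and 2 with the dim filter or without those arrays. The difference in change gave, for the adult, 0 with those groups alone, with the mean of probe sets and at 0.01, and, for E18.5 against E14.5, 1 with those groups alone or at 0.01, 5 with housekeeping scaling, 4 with the heart block, and 0 at 2-fold or without those arrays.

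The fit with the replicate number as a block gave 4 members for day 3 against E18.5, 38 for the adult against day 3 and 31 for E12.5 against E9.5, and changed no stage count. Cenpf turned in sign in the adult, to -0.88 with the mean of its probe sets and -2.72 with the most variable one. The cause of these differences was not tested. Dim adult levels limit the size of the folds, and 3 arrays a group limit the left-right comparisons.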
